A study of Mus musculus with 9 samples.

Results

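The genes described here are 8 annexins, Anxa1 to Anxa7 and Anxa11, with S100a10, which encodes the partner protein of annexin A2. They are 9 of the 35896 genes to which the deposited transcripts could be assigned, and they were taken by symbol. The set was chosen by the measured fall of Anxa2 with CK666 relative to control cells without LIF2i, so its values in that comparison are given as a description, with no test. The same holds there for the other 8 members. All 9 passed the filter on low counts that left 14648 genes for testing.

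Annexins are cytosolic proteins that bind phospholipids with negatively charged heads, such as phosphatidylserine, when calcium rises. They attach membranes to each other and to cortical actin, and they take part in vesicle traffic, membrane repair and the organisation of membrane patches. Annexin A2 forms a complex with S100A10, a member of the S100 family, and this complex binds actin filaments, the giant scaffold protein AHNAK and, at the cell surface, plasminogen.

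Poly-A RNA came from E14, a mouse embryonic stem cell line grown on gelatin in medium with serum. The 3 groups had 3 libraries each, numbered 1 to 3, and the study describes the biological replicates as paired. Control cells with LIF2i stayed in self-renewal medium, with the cytokine LIF, 1 µM of the MEK inhibitor PD0325901 and 1 µM of CHIR99021, which inhibits GSK3, a kinase of the Wnt pathway. Control cells without LIF2i had these withdrawn for 72 h, which lets them differentiate spontaneously. The CK666 cells were withdrawn for the same 72 h with 80 µM CK666, an inhibitor of the Arp2/3 complex that nucleates branched actin, added from a DMSO stock and renewed every day. Whether control cultures received DMSO is not given, so the drug and its solvent cannot be told apart.

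Library totals lay between 16894327 and 22550952 estimated counts. The detection floor of 3 counts was 0.133 to 0.178 CPM, the read count of a gene after scaling for sequencing depth. The replicate 1 libraries stood apart in all 3 groups: they held reads of 15690 to 17605 genes, and replicates 2 and 3 of 18166 to 18749. Mitochondrial transcripts took 0.422% to 0.734% of their counts, against 1.08% to 1.76%. All 7 pluripotency markers were above 10 CPM on average in every group, and their summed level was 4212 to 4723 CPM with LIF2i, 1997 to 2058 CPM without and 1962 to 2281 CPM with CK666. The median log2 fold change of all tested genes was 0.01 to 0.02 in the 3 comparisons.

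Anxa2 (ENSMUSG00000032231.14) lies on the forward strand at chr9:69453620-69491795 of GRCm38. It shares 2.63% of its exonic bases with Gm16144, a gene on the other strand, and the counting is not stated to have used strand. Because Anxa2 is the member that the results turn on, the 187 bases before its GENCODE start (GRCm38, chr9:69453433-69453619, forward strand, from the RefSeq promoter table) are shown, with the matches to searched motifs in capitals.
Anxa2 promoter: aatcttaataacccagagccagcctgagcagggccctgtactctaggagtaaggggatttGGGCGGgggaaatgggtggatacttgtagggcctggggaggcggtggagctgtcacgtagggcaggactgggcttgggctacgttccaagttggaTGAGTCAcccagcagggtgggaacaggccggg
Motifs were searched in the 250 bases before the RefSeq start, which lies downstream of the GENCODE start, so that the last 63 bases of the window are not printed. The letters TGANTCA, which AP-1 factors bind, matched 1 time, 95 bases before the RefSeq start. The GC box GGGCGG of SP and KLF factors matched 3 times, at 190, 48 and 24 bases before it, of which the match at 190 bases is printed. No match was found to GGAATG (TEAD factors), TTCNNNGAA (STAT factors) or the CArG box (serum response factor). Both strands were searched, and overlapping matches were allowed. Of 32851 RefSeq promoter windows of the same length, 6.75% held TGANTCA, 32.7% GGGCGG, 12.6% GGAATG, 7.02% TTCNNNGAA and 1.47% a CArG box. RefSeq windows were available for 6 of the 9 members, 8 windows in all, and Anxa2 had the TGANTCA match among these. Anxa7 and Anxa11 also held a GC box, Anxa1 held GGAATG 236 bases before its start, and Anxa4 and Anxa5 held none of the 5 motifs. These matches describe letters, and no binding was measured.

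By TPM, Anxa2 was 2nd of the 9 members in replicates 2 and 3 of both control groups and 7th in all 3 CK666 libraries. In replicate 1 it was 4th with LIF2i and 6th in control cells without. Levels are given as TPM, a transcript abundance that is divided by length and scaled to a common sum, so that genes can be compared. In replicate order, Anxa2 stood at 51.2, 158 and 133 TPM with LIF2i. It stood at 32.0, 70.0 and 83.9 TPM in control cells without LIF2i. With CK666 it stood at 12.4, 12.5 and 14.4 TPM. The 3 CK666 libraries lay below all 6 control libraries, and in each group of control libraries replicate 1 was the lowest.

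With CK666, Anxa2 was 4.67-fold below control cells without LIF2i, a log2 difference of -2.22, with -1.70, -2.38 and -2.53 in the 3 same-numbered pairs. These are the values for which the gene was chosen. Without the replicate 1 libraries the log2 difference was -2.49, and over 20 alternative settings it ran from -2.51 to -2.04. In these bulk samples, fewer cells with a transcript and less of it per cell cannot be told apart.

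S100a10 (ENSMUSG00000041959.14, chr3:93555080-93564643, forward strand) had the highest mean TPM of the members in every group, although Anxa6 exceeded it in all 3 replicate 1 libraries. In replicate 1, S100a10 was 2nd of the members with LIF2i, 3rd in control cells without LIF2i and 4th with CK666. Its level was 131, 195 and 175 TPM with LIF2i. In control cells without LIF2i it was 43.0, 205 and 243 TPM. With CK666 it was 34.2, 109 and 100 TPM. Replicate 1 was the lowest library of each group. The CK666 libraries lay below those with LIF2i in TPM, and they overlapped those without LIF2i through the replicate 1 control library; in replicates 2 and 3 the CK666 libraries were below the control libraries of those numbers. The log2 difference of CK666 from control cells without LIF2i was -0.87, with -0.26, -0.83 and -1.31 in the pairs, a 1.83-fold lower level. It ran from -1.24 to -0.50 over 20 alternatives in tool, scaling, filter, block and left-out libraries.

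S100a10 stood closer to its control level than Anxa2 did, and the ratio of their TPM values shows this library by library. S100a10 TPM was 2.55, 1.23 and 1.32 times Anxa2 TPM with LIF2i. The ratio was 1.35, 2.92 and 2.89 in control cells without LIF2i, and 2.76, 8.68 and 6.96 with CK666. Group means were 1.7 ± 0.737, 2.39 ± 0.898 and 6.13 ± 3.05 (SD, n = 3 each). In all 3 pairs the ratio was higher with CK666 than in control cells without LIF2i, but the CK666 replicate 1 library lay within the range of the control libraries.

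The replicate 1 libraries without LIF2i also divided their Anxa2 reads differently. The full-length transcript (ENSMUST00000034756.14) held 42.2% of Anxa2 TPM in CK666 replicate 1 (68.9% of its estimated counts), beside 38.1% and 19.6% of TPM for a pair of shorter ones, and 100% in CK666 replicates 2 and 3. In control cells without LIF2i it held 75.8%, 95.0% and 96.3% of TPM. Using only the full-length transcripts of both genes, a choice made after the data were seen, the ratio was 2.55, 1.26 and 1.38 with LIF2i. It was then 1.78, 3.07 and 3 without LIF2i and 6.05, 8.64 and 6.94 with CK666. On that basis every CK666 library exceeded every control library. The ratio rests on the contrast that chose Anxa2 and is a description.

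**Figure D1:**
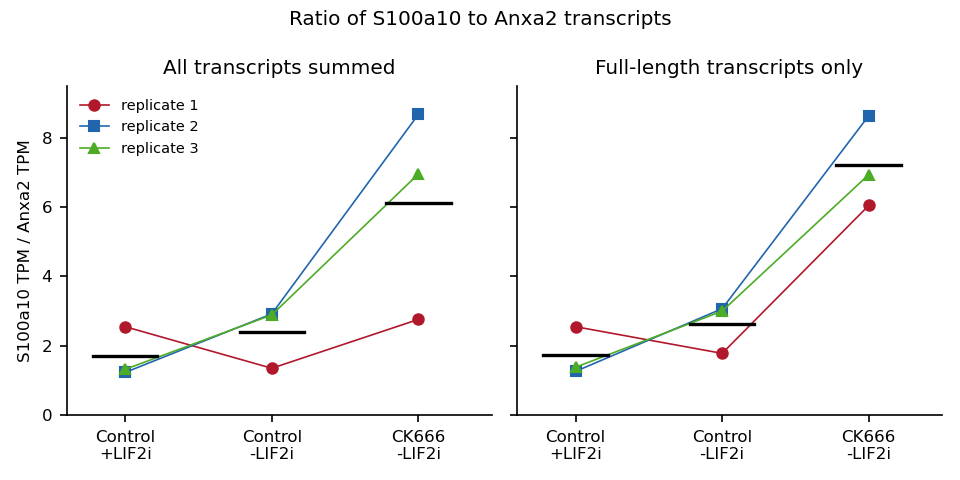
S100a10 TPM divided by Anxa2 TPM in each library, for all transcripts of both genes and for their full-length transcripts alone. Points are libraries marked by replicate number and bars are group means. With all transcripts, CK666 replicate 1 (2.76) lies below control replicates 2 and 3 without LIF2i (2.92 and 2.89). With the full-length transcripts the CK666 libraries lie at 6.05 to 8.64 and the control libraries at or below 3.07. That basis was chosen after the data were seen.

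Anxa2 made up a changing part of the pooled annexin message. Its share of the TPM summed over the 8 annexins was 12.2%, 43.3% and 41.7% with LIF2i. In control cells without LIF2i it was 11.6%, 21.8% and 25.9%. With CK666 it was 4.98%, 5.91% and 5.95%. The CK666 shares lay below those of all 6 control libraries, and replicates 2 and 3 of the control groups differed from replicate 1 by more than they differed from each other. The annexin sum itself was 318 to 421 TPM with LIF2i, 276 to 324 TPM without and 212 to 250 TPM with CK666.

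**Figure D2:**
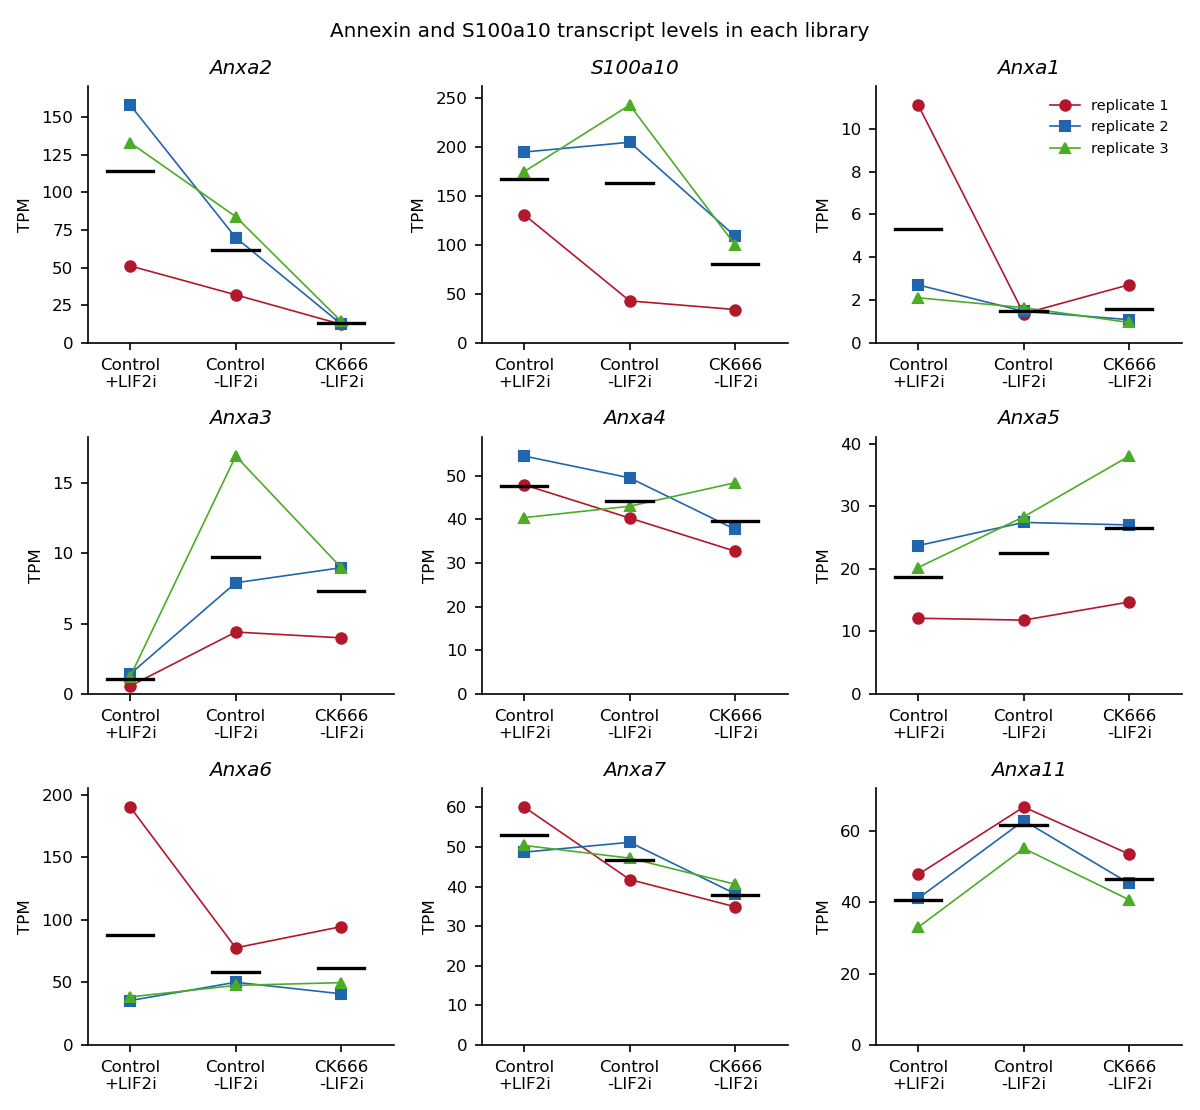
TPM of each of the 9 genes in each library, with 1 panel per gene, linear axes that start at 0 and differ between panels, points for libraries and bars for group means. Anxa2 lies at 12.4 to 14.4 TPM in all CK666 libraries, and Anxa3 at 0.569 to 1.42 TPM with LIF2i and at 3.99 to 16.9 TPM in the libraries without it.

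Withdrawal of LIF2i changed 3 of the 9 members by edgeR's quasi-likelihood test, at an adjusted p under 0.05 over all genes, where 40.7% of all tested genes were called. Anxa3 and Anxa11 rose and Anxa2 fell. Among all genes, 21.1% were called raised and 19.7% lowered, so the share called among the members was near the background. This comparison shares the control libraries without LIF2i with the contrast that chose Anxa2.

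Anxa3 (chr5:96793339-96845966, forward strand), which encodes a small annexin abundant in neutrophils, had the largest change of the 9. It stood at 0.569, 1.42 and 1.24 TPM with LIF2i and at 4.40, 7.90 and 16.9 TPM without, from 7, 18 and 17 counts against 66, 156 and 282. Every library without LIF2i was above every library with it. It rose 10.7-fold, by 3.42 on the log2 scale (SE 0.32, adjusted p 5.5e-05 by edgeR, higher in 3 of 3 pairs). It was called in all 20 alternatives, with log2 values from 2.22 to 3.58. Anxa3 shares 3.07% of its exonic bases with Gm42603 on the same strand.

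Anxa11 (chr14:25842156-25886804, forward strand), an annexin with a long proline-rich start that links RNA granules to lysosomes, rose by less. It went from 47.8, 41.1 and 33.0 TPM with LIF2i to 66.7, 62.9 and 55.1 TPM without. The groups did not overlap, and the level rose by 0.56 on the log2 scale (SE 0.11; adjusted p 0.0040 by edgeR; higher in 3 of 3 pairs). Without the replicate 3 libraries the value was 0.50 with an adjusted p of 0.084. Anxa11 shares 2.73% of its exonic bases with Anxa11os on the other strand.

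Anxa2 fell on withdrawal by 0.99 on the log2 scale (SE 0.20, edgeR adjusted p 0.0038, lower in 3 of 3 pairs). The groups overlapped, since the replicate 1 library with LIF2i lay below replicates 2 and 3 without it. It was called in 19 of 20 alternatives, the exception being the fit without the replicate block, with a log2 value of -1.02 and an adjusted p of 0.24. With each replicate number left out in turn it ran from -1.14 to -0.79.

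Anxa1 (chr19:20373428-20390944, reverse strand), the glucocorticoid-induced annexin that acts on formyl peptide receptors, was low in all groups. It stood at 11.1, 2.71 and 2.11 TPM with LIF2i and at 1.37, 1.48 and 1.65 TPM without. The counts behind these were 173, 57 and 39 against 6, 31 and 33. The groups did not overlap, but replicate 1 with LIF2i stood far above the others, and the log2 change of -1.82 (SE 0.76) did not pass (edgeR adjusted p 0.085, lower in 3 of 3 pairs). DESeq2 gave 0.031 and limma's voom 0.047. Without the replicate 1 libraries the value was -0.62 with an edgeR adjusted p of 0.29. The main coding transcript (ENSMUST00000025561.7) held 0% of Anxa1 TPM in replicate 1 without LIF2i and in replicate 1 with CK666, where the reads went to other annotated transcripts.

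The other 5 members did not pass the edgeR test for withdrawal. Anxa5 (chr3:36448923-36475894, reverse strand), whose protein is the common probe for exposed phosphatidylserine, changed by 0.15 (SE 0.16, adjusted p 0.46). Anxa4 (chr6:86736840-86793584, reverse strand), an annexin of epithelial cells, changed by -0.25 (SE 0.14, adjusted p 0.19). Anxa7 (chr14:20455260-20480133, reverse strand), which also bears a long start region and binds sorcin, changed by -0.16 (SE 0.11, adjusted p 0.31). These 3 stayed within 40.3 to 54.5 TPM (Anxa4), 11.8 to 28.3 TPM (Anxa5) and 41.8 to 60.1 TPM (Anxa7) in the 6 control libraries.

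For S100a10 and Anxa6 the direction depended on replicate 1. S100a10 changed by -0.39 (SE 0.31, edgeR adjusted p 0.36) with all libraries and by 0.19 (adjusted p 0.35) without replicate 1. Anxa6 (chr11:54979108-55033445, reverse strand), the large annexin with a doubled core that binds late endosomes and cholesterol-rich membranes, changed by -0.23 (SE 0.28, edgeR adjusted p 0.56). Without replicate 1 it changed by 0.34 with an adjusted p of 0.047.

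Anxa6 stood at 190, 35.5 and 38.4 TPM with LIF2i, at 77.6, 50.1 and 47.6 TPM without, and at 94.5, 40.9 and 49.8 TPM with CK666. Replicate 1 was the highest library of every group, and with LIF2i it was above all 8 others. It made up 45.2% of the annexin TPM there and 9.71% to 12.0% in replicates 2 and 3 of the same group.

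Anxa6 message was divided between a pair of coding forms. A form (ENSMUST00000108883.9) holds an exon of 18 bases inside the coding sequence, at chr11:54987051-54987068 on the reverse strand, that the other (ENSMUST00000102727.2) lacks. The exon is shown in capitals with the 21 bases on each side in the transcript, beside the same stretch without it, because these letters are what separates the forms.
Anxa6 with the exon: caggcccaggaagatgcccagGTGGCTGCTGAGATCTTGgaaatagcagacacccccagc
Anxa6 without the exon: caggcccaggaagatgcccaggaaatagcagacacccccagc
The form without the exon held 47.3%, 39.2% and 36.2% of Anxa6 TPM with LIF2i. It held 61.6%, 53.1% and 46.5% in control cells without LIF2i and 44%, 50.8% and 57.7% with CK666. It was higher after withdrawal in all 3 pairs of control libraries, though replicate 1 with LIF2i (47.3%) was above replicate 3 without (46.5%), and the CK666 libraries spanned both. The shares were not tested, and they are estimates, since reads that fit both forms were divided between them.

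**Figure D3:**
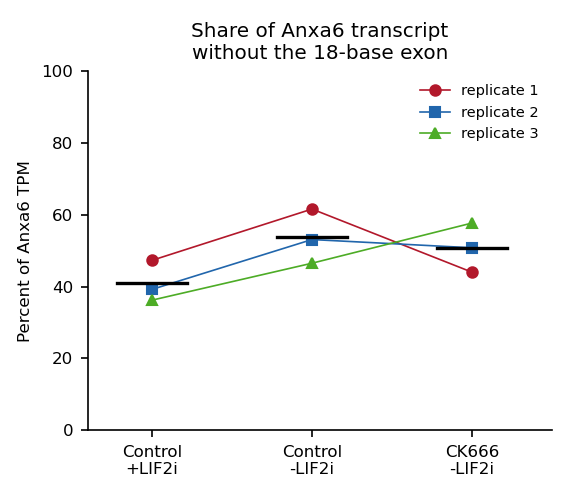
Percent of Anxa6 TPM held by the form without the 18-base exon, in each library. Lines join libraries of the same replicate number and bars are group means of 40.9%, 53.7% and 50.8%; the share is higher in each control library without LIF2i than in its same-numbered library with LIF2i.

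In the contrast of CK666 with control cells without LIF2i, 2 of the 9 members, Anxa2 and Anxa11, had groups that did not overlap in CPM, both lower with CK666; of all tested genes, 16.5% did not overlap and 7.69% were lower in this way. This count is printed as a description, since the contrast chose the members. Anxa11 stood at 53.5, 45.3 and 40.7 TPM with CK666, a log2 difference of -0.38, with -0.24, -0.42 and -0.46 in the pairs. Anxa7 stood at 34.9, 38.2 and 40.6 TPM, a difference of -0.29. Both were lower with CK666 in each pair, as were 23.3% of all tested genes, and Anxa7 overlapped its controls in CPM though not in TPM.

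Of the remaining members, Anxa3 stood at 3.99, 8.97 and 8.97 TPM with CK666, a log2 difference of -0.29 from control cells without LIF2i. Anxa5 stood at 14.7, 27.0 and 38.0 TPM, a difference of 0.20. Anxa4 stood at 32.7, 37.7 and 48.4 TPM, a difference of -0.03. Each of these 3 overlapped its controls. In log2 CPM, Anxa5 was above them in each pair by 0.01 to 0.38, as were 25.3% of all tested genes in direction. In TPM, Anxa5 in replicate 2 was slightly lower with CK666 (27.0) than in control cells without LIF2i (27.4). Anxa6 differed by 0.02 and Anxa1 by -0.67, from 2.72, 1.09 and 0.957 TPM, and the pairs of both pointed in both directions. With all libraries the 7 members besides Anxa2 and S100a10 lay between -0.67 and 0.20, and the value of Anxa1 ran from -1.46 to 0.08 over the 20 alternatives.

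**Figure D4:**
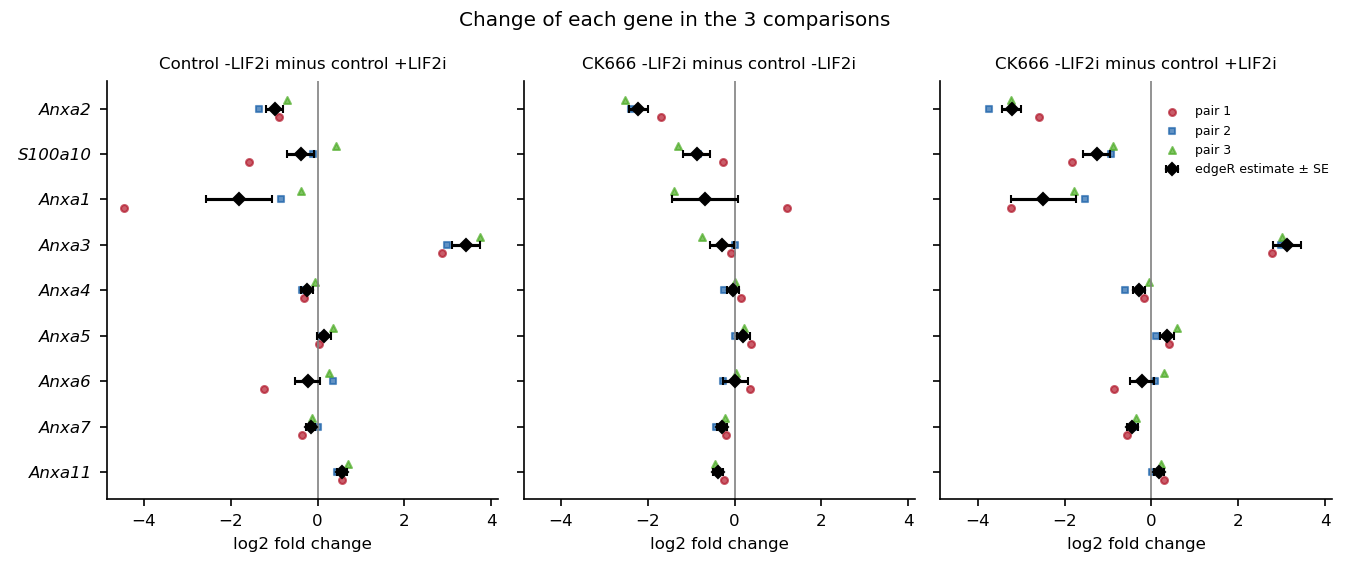
Log2 fold change of each of the 9 genes in the 3 comparisons. Small symbols are the 3 same-numbered pairs and black diamonds the edgeR estimates with their standard errors; with CK666 against control cells without LIF2i, Anxa2 lies at -2.22 and S100a10 at -0.87.

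Against cells kept in LIF2i, CK666 cells had lower Anxa2, S100a10, Anxa7 and Anxa1 and higher Anxa3, 5 of the 9 by edgeR's adjusted p, where 36.9% of all tested genes were called, 19.8% raised and 17.1% lowered. The comparison uses the CK666 libraries for which Anxa2 was chosen, so its call supports nothing and its log2 difference of -3.22 is a description. S100a10 fell by 1.26 on the log2 scale (SE 0.31, edgeR adjusted p 0.013, lower in 3 of 3 pairs), or 2.40-fold, with overlapping groups. Without the replicate block its adjusted p was 0.32, and without replicate 2 it was 0.072.

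Anxa3 was 8.70-fold higher than with LIF2i (log2 fold change 3.12, SE 0.32, edgeR adjusted p 1.0e-04, higher in 3 of 3 pairs). Over the 20 alternatives Anxa3 ran from 1.96 to 3.27 here. Its changes from LIF2i to either group without it stand side by side at 3.42 for control and 3.12 for CK666 cells; both use the same LIF2i libraries. Anxa7 was lower by -0.44 (SE 0.12, edgeR adjusted p 0.015, lower in 3 of 3 pairs), with no overlap of the groups, and its adjusted p was 0.12 without the block, 0.076 without replicate 2 and 0.11 without replicate 3. Anxa1 changed by -2.49 (SE 0.75, edgeR adjusted p 0.028, lower in 3 of 3 pairs), and it was called in 11 of 20 alternatives, with an adjusted p of 0.071 without replicate 2 and 0.084 without replicate 3, and a value of -1.75 without replicate 1. Anxa4 (-0.28), Anxa5 (0.36), Anxa6 (-0.21) and Anxa11 (0.18) did not pass, and Anxa6 turned to 0.21 without replicate 1.

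The order of the levels differed between groups. With LIF2i the mean TPM ran S100a10, Anxa2, Anxa6, Anxa7, Anxa4, Anxa11, Anxa5, Anxa1 and Anxa3, from 167 ± 32.8 to 1.08 ± 0.449 TPM (SD, n = 3). The ranges of neighbours overlapped from S100a10 down to Anxa11; Anxa11 (33.0 to 47.8 TPM) lay above Anxa5 (12.1 to 23.7 TPM), Anxa5 above Anxa1, and Anxa1 above Anxa3. Without LIF2i the order of the means in control cells was S100a10, Anxa2, Anxa11, Anxa6, Anxa7, Anxa4, Anxa5, Anxa3 and Anxa1, with Anxa11 up from 6th to 3rd. With CK666 the order ran S100a10, Anxa6, Anxa11, Anxa4, Anxa7, Anxa5, Anxa2, Anxa3 and Anxa1. There Anxa2 (13.1 ± 1.11 TPM) lay just below the lowest Anxa5 library (14.7 TPM) and above all Anxa3 libraries.

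Annexins and S100a10 are abundant in fibroblasts and in extraembryonic cells, so markers of those cells, and of neural cells, are given beside the Anxa2 values. The 8 fibroblast or feeder markers summed to 12.5 to 28.3 CPM with LIF2i, 32.6 to 44.8 CPM in control cells without and 22.5 to 31.8 CPM with CK666, with 1 of the 8 above 10 CPM on average in each group. Lum was at 0 in every library with LIF2i or CK666. The 9 endoderm markers summed to 12.0 to 15.5, 24.0 to 56.6 and 27.8 to 43.2 CPM, with Ttr at 0 with LIF2i and with CK666 and Afp at 0 with LIF2i. The 6 trophoblast markers summed to 88.9 to 103 CPM with LIF2i, of which Tfap2c, encoding a transcription factor, gave 85.5, 87.1 and 97.1 CPM. Tfap2c averaged 5.03 CPM in control cells without LIF2i and 9.92 CPM with CK666, so the lower trophoblast sums without LIF2i lay mostly in that gene. In control cells without LIF2i their sum began at 8.97 CPM, and all 3 of these libraries lay below the 16.9 to 27.9 CPM of the CK666 libraries. The 5 markers of primitive streak and mesoderm summed to 7.71 to 14.8, 8.46 to 17.4 and 4.13 to 7.96 CPM in the order LIF2i, control without LIF2i and CK666. In that order the 5 neural markers summed to 51.3 to 196, 29.7 to 89.5 and 38.8 to 110 CPM.

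On withdrawal, where Anxa2 fell, edgeR called markers of these lists in both directions, beside 21.1% of all tested genes raised and 19.7% lowered. Of the 6 tested fibroblast markers 4 rose. Without the block 2 rose, and without replicate 1 3 rose and 1, Pdgfrb, fell (-1.01, edgeR adjusted p 0.017). Of the 6 tested endoderm markers 2 rose, Dab2 (2.80, adjusted p 4.0e-05 by edgeR) and Amn (2.06, 0.0048). Without replicate 1, 4 were tested, of which 2 rose and 1, Gata4, fell (-1.04, edgeR adjusted p 0.015). Of the 4 tested trophoblast markers Krt7 rose (2.32, edgeR adjusted p 0.034, and 0.14 without the block) and Tfap2c fell (-4.30, 1.8e-05). Without replicate 1, 2 of the 4 rose and 2 fell. Of the 4 tested neural markers Map2 rose (2.10, edgeR adjusted p 5.0e-04), while Tubb3 fell (-1.52, 3.3e-04, and 0.16 without the block) and so did Sox1 (-1.36, 0.019, and 0.60 without the block). Of the 3 tested markers of primitive streak and mesoderm Mixl1 rose (4.21, edgeR adjusted p 0.012), from 0.105 CPM or less with LIF2i.

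With CK666 the lower fibroblast sum lay mostly in Thy1, with a mean of 21.2 CPM in control cells without LIF2i and 13.6 CPM with CK666 (edgeR adjusted p 0.21), while Dcn averaged 1.39 CPM in both. Without replicate 1, where 12.3% of all tested genes were called in this comparison, edgeR called markers that had missed the threshold with all libraries. Of the 4 tested neural markers these were Pax6 (2.48, adjusted p 0.0020, against 0.43 with all libraries) and Sox1 (1.40, 0.018, against 0.11), both higher with CK666, while Tubb3 was at -0.41 and Map2 at -0.31. Of the 4 tested endoderm markers Gata4 was called higher (1.41, adjusted p 0.013, against 0.20), while Amn was at -0.35. Of the 4 tested trophoblast markers Ascl2 (adjusted p 0.018, against 0.090) and Tfap2c (0.81, 0.049, against 0.11) were called higher, while Krt7 was at -0.31. Of the 7 pluripotency markers Nanog was called higher (0.65, adjusted p 0.010, against 0.32) and Utf1 lower (-0.63, 0.023, against 0.80). Pax6 stood at 5.64, 1.76 and 1.73 CPM in control cells without LIF2i and at 7.06, 9.34 and 10.4 CPM with CK666. The part of these cells in the Anxa2 values was not tested.

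Other genes of the same systems were taken from 6 lists of 51 genes, of which 33 were tested. By edgeR's adjusted p, 4 of the 33 rose and 11 fell on withdrawal, with a median log2 fold change of -0.33; of all tested genes, 21.1% rose and 19.7% fell. Without the replicate block 3 of the 33 rose and 7 fell. Against control cells without LIF2i, CK666 changed 0 of the 33 by edgeR, with 8 at an unadjusted p under 0.05 and a median of 0.00. DESeq2 called 2 and voom 1, and 4 were called by edgeR without the replicate 1 libraries. Those 4 were Ahnak (-0.74, adjusted p 0.0062) and Pdcd6 (-0.58, 0.025), which were lower, and Sri (0.72, 0.019) and Atp8a1 (0.72, 0.045), which were higher. The background for this comparison was 2.05% of all tested genes with all libraries and 12.3% without replicate 1.

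Membrane repair proteins and annexin-binding proteins had 12 tested genes, 2 raised and 5 lowered on withdrawal. Myof, encoding the ferlin myoferlin, a calcium-dependent membrane fusion protein, stood at 474, 280 and 271 CPM with LIF2i. It stood at 3.33, 12.3 and 13.8 CPM in control cells without LIF2i and at 6.97 to 15.9 CPM in the 3 CK666 libraries. Its fall by 5.28 on the log2 scale (SE 0.59, edgeR adjusted p 5.4e-04) exceeded that of any of the 9 members, and without replicate 1 the value was -4.37. Its paralogue Dysf, for dysferlin, rose by 0.91 (adjusted p 0.014, and 0.21 without the replicate block).

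Ahnak, the scaffold bound by annexin A2 with S100A10, stood at 161, 91.1 and 167 CPM with LIF2i, at 9.26, 42.8 and 92.0 CPM without and at 13.2, 27.6 and 53.0 CPM with CK666. On withdrawal it fell by 2.00 on the log2 scale (SE 0.61), which edgeR called with the block (adjusted p 0.038), while without it the adjusted p was 0.15. Without the replicate 1 libraries the fall was smaller, at -0.95 (adjusted p 2.2e-04). The calpain genes, whose calcium-activated proteases act in membrane repair, went both ways. Capn1 changed by -1.48 (SE 0.20) and the small subunit gene Capns1 by -1.24 (SE 0.18), while Capn2 rose by 0.70 (SE 0.13), with edgeR adjusted p from 4.4e-04 to 0.0026. Sri, encoding sorcin, fell by 0.94 (SE 0.15, edgeR adjusted p 0.0012).

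In the S100 family, 5 of 15 genes were tested and 2 fell on withdrawal. S100a13 changed by -3.88 (SE 0.75, edgeR adjusted p 0.0038) and S100a1 by -1.88 (SE 0.35, 0.0023); without the block these p-values were 0.086 and 0.33, and without replicate 1 S100a13 was at -3.22 and S100a6 was called as well, in the other direction (1.37, edgeR adjusted p 0.012, against 0.41 with all libraries). S100a11, whose protein binds annexin A1, stood at 10.1, 22.5 and 23.5 CPM with LIF2i, at 1.21, 16.2 and 19.9 CPM without and at 2.42, 11.3 and 12.5 CPM with CK666. Its withdrawal change of -1.08 (SE 0.44) did not pass (edgeR adjusted p 0.079), and without replicate 1 it was -0.33 (0.16). Replicate 1 was the lowest library of each group for S100a11, as it was for S100a10.

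Of 8 genes for phosphatidylserine scramblases and flippases, 4 fell on withdrawal. Without replicate 1, 3 fell and 1, Plscr3, rose (0.71, edgeR adjusted p 0.021, against 0.085 with all libraries). Atp11a, a flippase that returns the lipid to the inner leaflet, changed by -1.75 (SE 0.13, edgeR adjusted p 1.5e-05), and the flippase gene Atp8a1 by -1.28 (SE 0.20, 9.6e-04). Xkr8, a caspase-activated scramblase, changed by -1.08 (adjusted p 0.016, and 0.064 without replicate 1) and Plscr1 by -0.71 (0.014, and 0.24 without the block). Of 6 tested plasminogen genes, 2 rose: Serpine2, encoding a serine protease inhibitor, by 1.82 (SE 0.27, edgeR adjusted p 6.8e-04) and Plat, encoding tissue plasminogen activator, by 2.47 (SE 0.67, 0.016), or 1.45 without replicate 1. Plat was low, at 0.147, 1.15 and 0.364 CPM with LIF2i and 4.44, 2.49 and 1.51 CPM in control cells without. Its replicate 1 value with LIF2i was near the detection floor of that library, 0.139 CPM. Plaur, encoding the urokinase receptor, stood at 4.58, 16.8 and 29.4 CPM in control cells without LIF2i and at 4.12, 8.15 and 13.2 CPM with CK666, a difference of -0.81 that did not pass (edgeR adjusted p 0.22).

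The other annexin genes with values here, Anxa8, Anxa9 and Anxa10, were low. Anxa8, the highest of them by group mean, stood at 2.70, 3.03 and 1.82 CPM with LIF2i, at 0.434, 1.76 and 0.810 CPM without and at 0.190, 1.87 and 0.391 CPM with CK666. Its withdrawal change of -1.60 (SE 0.62) did not pass (edgeR adjusted p 0.066). With CK666 against LIF2i it was lower by -2.11 (SE 0.64, edgeR adjusted p 0.029), a call lost without the block (0.20) and without replicate 1 (-1.28, 0.074). Anxa9 was at or below 1.01 CPM in every library, Anxa10 did not pass the filter, and none of the 3 formyl peptide receptor genes did.

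**Figure D5:**
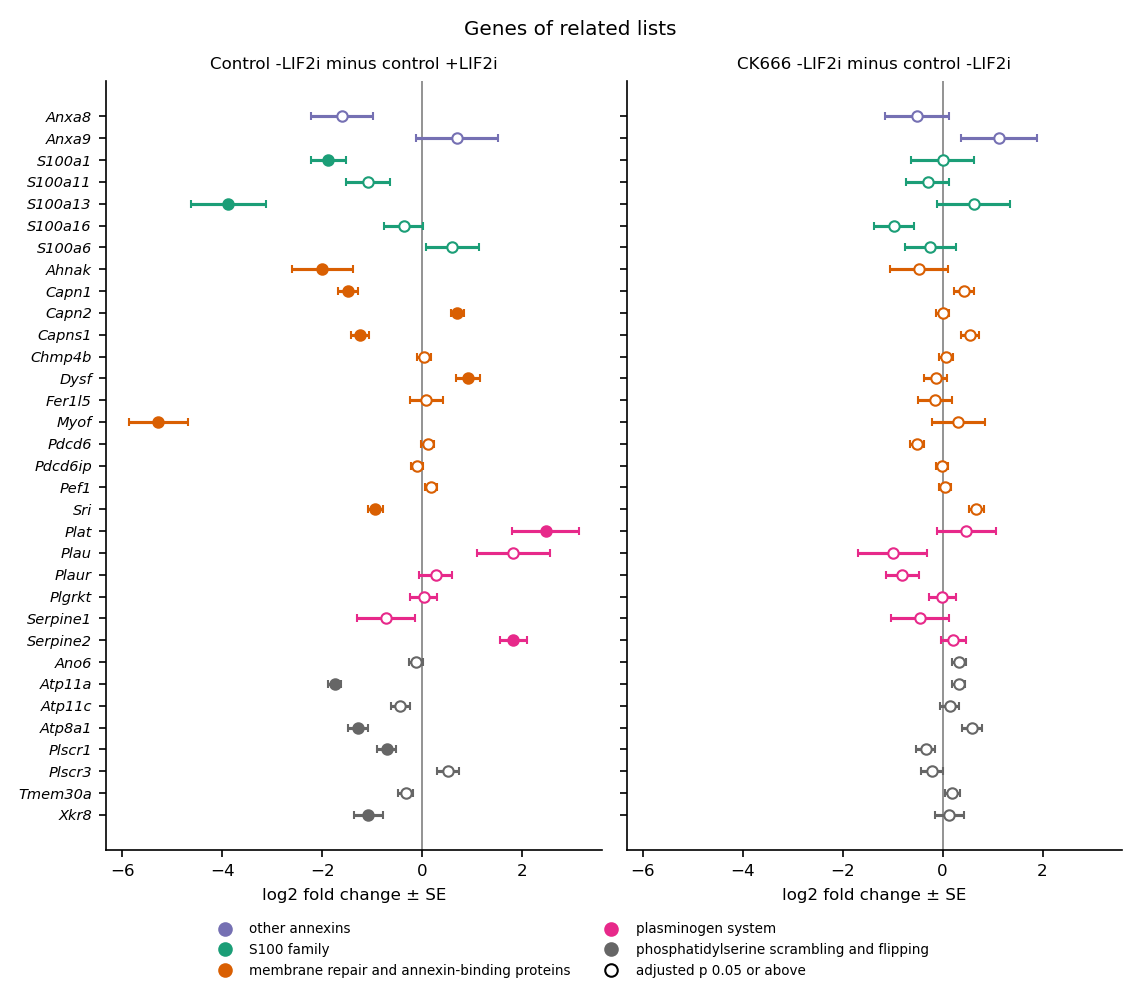
Log2 fold change with standard error of the 33 tested genes from the lists of related genes, on withdrawal of LIF2i in the left panel and with CK666 against control cells without LIF2i in the right panel. Points are genes coloured by list, filled where the edgeR adjusted p is under 0.05; Myof lies lowest on withdrawal at -5.28, and the right panel has no filled point.

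The genes whose pattern was most like that of Anxa2 were found among 9498 protein-coding genes whose log2 CPM averaged 3 or more, by Pearson r of log2 CPM over the 9 libraries after removing the mean of each replicate number. They were 1810037I17Rik, Ftsj1, Enoph1 and Aldoa (r 0.99 each) and Zmpste24 (0.98). Aldoa, encoding a glycolytic aldolase, averaged 2711 CPM with LIF2i, 2360 CPM without and 1277 CPM with CK666. For S100a10 they were Jup (0.99), Yod1 and Eif2d (0.98), and Bak1 and Ywhaz (0.97). Jup, encoding plakoglobin of cell junctions, averaged 152, 140 and 115 CPM in the same order. Among the members, Anxa2 had r of 0.91 with Anxa7, 0.81 with S100a10, 0.68 with Anxa4 and 0.63 with Anxa1. Its r was 0.11 with Anxa6, -0.06 with Anxa11, -0.66 with Anxa3 and -0.77 with Anxa5. The 9 points share library, replicate number and the group differences by which Anxa2 was chosen, and these r values are descriptions.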

How the data were processed

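Per the submitters' processing notes, the tools were FastQC, cutadapt 1.8.1, kallisto and sleuth, with the builds mm10 and GRCh38 named and no role given to each; the transcript release and any use of strand are not given in the sources used here. The authors deposited, for each of 9 libraries, 119414 transcripts with length, effective length (another per-library value, used for 1 alternative), estimated counts, which are not normalised and divide shared reads between transcripts, and TPM. Both were summed per gene with GENCODE M21 (GRCm38), which covered 97.7% of transcripts; the others held 0.895% to 1.08% of counts and were left out. The 9 members and all lists were chosen with earlier results of these data known.

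Estimated counts were rounded and tested over 14648 genes with edgeR 4.0.16 (R 4.3.3): TMM scaling, its filter on low counts, the robust quasi-likelihood test over all 9 libraries and the replicate number as a block (4 residual degrees of freedom), with Benjamini-Hochberg adjustment and a threshold of 0.05. CPM are TMM-scaled. Pair differences are of log2 CPM (prior count 2), and overlap was judged on CPM. The pairing is the study's own. Across genes, deviations from the group mean had a median r of 0.41 (0.31 to 0.65) between libraries of the same number. Between those of different numbers the median r was -0.37 (-0.53 to 0.29). Deviations cancel out within a group, and replicate 1 stood apart in all groups. These r values therefore cannot decide whether replicates 2 and 3 are paired across groups. Within groups, replicates differed beyond counting error (chi-square per gene 18.1 to 234), which repeated preparations of 1 culture could also give. Intervals were not attached to counts, and the floor of 3 counts covers counting error only. Alternatives were DESeq2 1.42.0, limma 3.58.1 (voom, and log2 TPM with a pseudocount of 1 or 0.1), other scalings, no block, no filter and left-out libraries. Named genes are the members, listed genes that were called or above 10 CPM, low annexins given as values, and the 5 genes most like Anxa2 and S100a10; Anxa9, markers at 0 and markers under 10 CPM that were not called with all libraries were named after their values were seen. Anxa13 was not analysed here.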

Additional observations from a re-analysis of the deposited data

How the results depend on the processing

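Over the 20 alternatives, Anxa3 kept its call in both comparisons with LIF2i. Without the replicate block, 3509 genes were called for withdrawal (5967 with it), 0 for CK666 against control cells without LIF2i (300 with it; 1251 at an unadjusted edgeR p under 0.05 without the block) and 2966 for CK666 against LIF2i (5408 with it), and 3 members in the last comparison instead of 5. Leaving out replicates or single libraries gave 3099 to 6588, 0 to 1811 and 2413 to 6129 genes, and 2 to 4 members for withdrawal and 2 to 5 for CK666 against LIF2i. For CK666 against control cells, DESeq2 called 1100 genes, no filter on low counts 565, effective-length offsets 148, log2(TPM + 1) 42 and log2(TPM + 0.1) 23. The cause of these differences was not tested.

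Directions turned as follows, each time without replicate 1, without its library with LIF2i, or without its control library without LIF2i: Anxa6 on withdrawal 0.34, 0.26 and 0.15, S100a10 on withdrawal 0.19, 0.08 and 0.04, and Anxa6 with CK666 against LIF2i 0.21 and 0.29 for the first 2 of these settings. Over all left-out replicates and libraries these ran from -0.52 to 0.34, from -0.83 to 0.19 and from -0.45 to 0.29. With CK666 against control cells, the small differences of Anxa4 (-0.17 to 0.11), Anxa6 (-0.30 to 0.25) and Anxa1 (-1.46 to 0.08) changed sign among settings. Where a left-out library leaves fewer samples in an arm, these are assumed to vary like the other groups. At 6 to 282 counts per library, Anxa1 and Anxa3 rest on few reads.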
